A study of Rattus norvegicus with 12 samples.

Results

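The genes described here are the enzymes of glycolysis, chosen by symbol as Gpi, Pfkl, Tpi1, Gapdh, Pgk1, Pgam1, Eno1, Pklr and Ldha, 9 of the 33744 genes in the deposited table. Each symbol stood on a single gene, and all 9 were tested. RNA was sequenced from livers of male Sprague Dawley rats, used as a model of donation after circulatory death (DCD), with 3 livers in each of 4 groups. HOPE 1 h livers had 30 min of warm ischemia in situ, 3 h of static cold storage in histidine-tryptophan-ketoglutarate solution and then 1 h of hypothermic oxygenated machine perfusion at 4 °C. HMP 1 h livers had the same 30 min of warm ischemia and 3 h of storage, followed by 1 h of cold machine perfusion without active oxygenation. SCS 4 h livers had 30 min of warm ischemia and 4 h of static cold storage, and WI 30 min livers had 30 min of warm ischemia alone. Every group had therefore passed through warm ischemia, and no liver without it was analysed here. HOPE 1 h and HMP 1 h are called perfused, and SCS 4 h and WI 30 min unperfused. Perfused livers differed from WI 30 min livers in the 3 h of storage as well as in perfusion, and these cannot be told apart in that contrast.

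Glycolysis splits glucose into pyruvate in the cytosol and yields ATP without oxygen. Lactate dehydrogenase then turns pyruvate into lactate and restores the NAD+ that the pathway uses, which lets it continue when respiration stops. The liver runs most of these enzymes in both directions, since it also makes glucose from lactate, and the steps of hexokinase, phosphofructokinase and pyruvate kinase are the ones bypassed by separate enzymes. Several genes of the pathway are known targets of the hypoxia-inducible factors, whose binding element has the core ACGTG or GCGTG. Liver pyruvate kinase is known instead for a carbohydrate response element bound by ChREBP.

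The promoters of 3 of the enzymes are shown because Ldha and Gapdh were among the mRNAs that were lower after perfusion while Pklr, not called, had a positive log2 fold change. They are the 250 bases before the annotated start in RefSeq on assembly GRCr8, at chr1:106507842-106508091 on the plus strand for Ldha, chr4:159652468-159652717 on the minus strand for Gapdh and chr2:176841014-176841263 on the plus strand for Pklr. Capitals mark matches on either strand to the core ACGTG, the core GCGTG, the E-box CACGTG, and the half-site CACGGG of the carbohydrate response element. This half-site was searched for after the sequences had been seen.
Ldha: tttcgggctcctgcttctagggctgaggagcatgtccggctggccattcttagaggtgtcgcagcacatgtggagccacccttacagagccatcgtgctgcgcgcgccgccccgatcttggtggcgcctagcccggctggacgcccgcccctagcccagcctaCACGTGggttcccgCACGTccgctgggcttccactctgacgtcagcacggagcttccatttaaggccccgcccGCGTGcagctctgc
Gapdh: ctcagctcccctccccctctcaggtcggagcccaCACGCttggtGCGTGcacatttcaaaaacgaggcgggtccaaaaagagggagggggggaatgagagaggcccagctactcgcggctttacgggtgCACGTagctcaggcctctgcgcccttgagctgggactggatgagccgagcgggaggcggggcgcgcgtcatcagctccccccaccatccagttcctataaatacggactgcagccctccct
Pklr: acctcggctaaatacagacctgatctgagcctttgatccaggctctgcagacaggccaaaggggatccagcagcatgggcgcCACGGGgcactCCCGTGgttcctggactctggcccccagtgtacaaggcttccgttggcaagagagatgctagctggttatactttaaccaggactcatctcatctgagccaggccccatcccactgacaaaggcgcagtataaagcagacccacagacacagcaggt

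The RefSeq table held 9 promoter windows for 8 of the 9 enzymes, since Eno1 had 2 annotated starts. Pgk1 had no window, so its promoter was not searched. ACGTG was found in 3 of the 9 windows (Ldha, Gapdh and Pgam1), against 16.6% of 33469 promoter windows of the same length. GCGTG was found in 6 of the 9 windows (Ldha, Gapdh, Pgam1, Pfkl and both of Eno1), against 25.9% of all windows. In Ldha, ACGTG matched at positions −87, −86 and −73 from the start, and the first of these overlap in an E-box at −87. CACGTG was present in 1 of the 9 windows and in 5.59% of all windows. The half-site CACGGG was found in 3 of the 9 windows (Pklr, Pfkl and the second of Eno1), against 8.05% of all windows, and Pklr held it at position −168 and again, on the other strand, at −157. These matches describe letters in the windows and not bound sites. Pfkl, which held both GCGTG and CACGGG, had a log2 fold change of 0.04 between perfused and unperfused livers. A link between the matches and the fold changes was not tested.

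HOPE 1 h livers had the deepest libraries. Total counts were 17582521 to 18343167 in HOPE 1 h, 16563806 to 17240977 in HMP 1 h, 15592012 to 17167688 in SCS 4 h and 15262961 to 17083357 in WI 30 min. Hepatocyte markers (10 of 10 detected) summed to 154720 to 214553 CPM (counts scaled to a common library size) in perfused and 146374 to 227700 CPM in unperfused livers. In HMP 1 h liver 1, 18.7% of counts were mitochondrially encoded, against 4.79% to 10.2% in the other livers. Differences were tested with edgeR's quasi-likelihood test over 13687 genes, with Benjamini-Hochberg adjustment and a threshold of 0.05.

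Ldha, Gapdh and Pgk1 fell in perfused livers, while Gpi and Pfkl were at about the same level in both sets and Pklr had the largest positive log2 fold change of the 9. The count of 3 of 9 enzymes called, all lower, compares with 1.02% of all genes called in either direction between perfused and unperfused livers (140 genes, 103 of them lower). Scaled by library totals alone, without TMM factors, 306 genes were called and 268 of them were lower. The median log2 fold change of the 9 was −0.39, against 0.03 over all genes tested, and 6 of the 9 were negative, against 45.3% of all genes (8 of the 9 with library totals, where Gpi and Pfkl also turned slightly negative). At an unadjusted p under 0.05, 6 enzymes were lower (8.85% of all genes) and 1 was higher (8.82%). In tissue RNA, fewer cells of a type and less RNA per cell cannot be told apart.

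**Figure D1:**
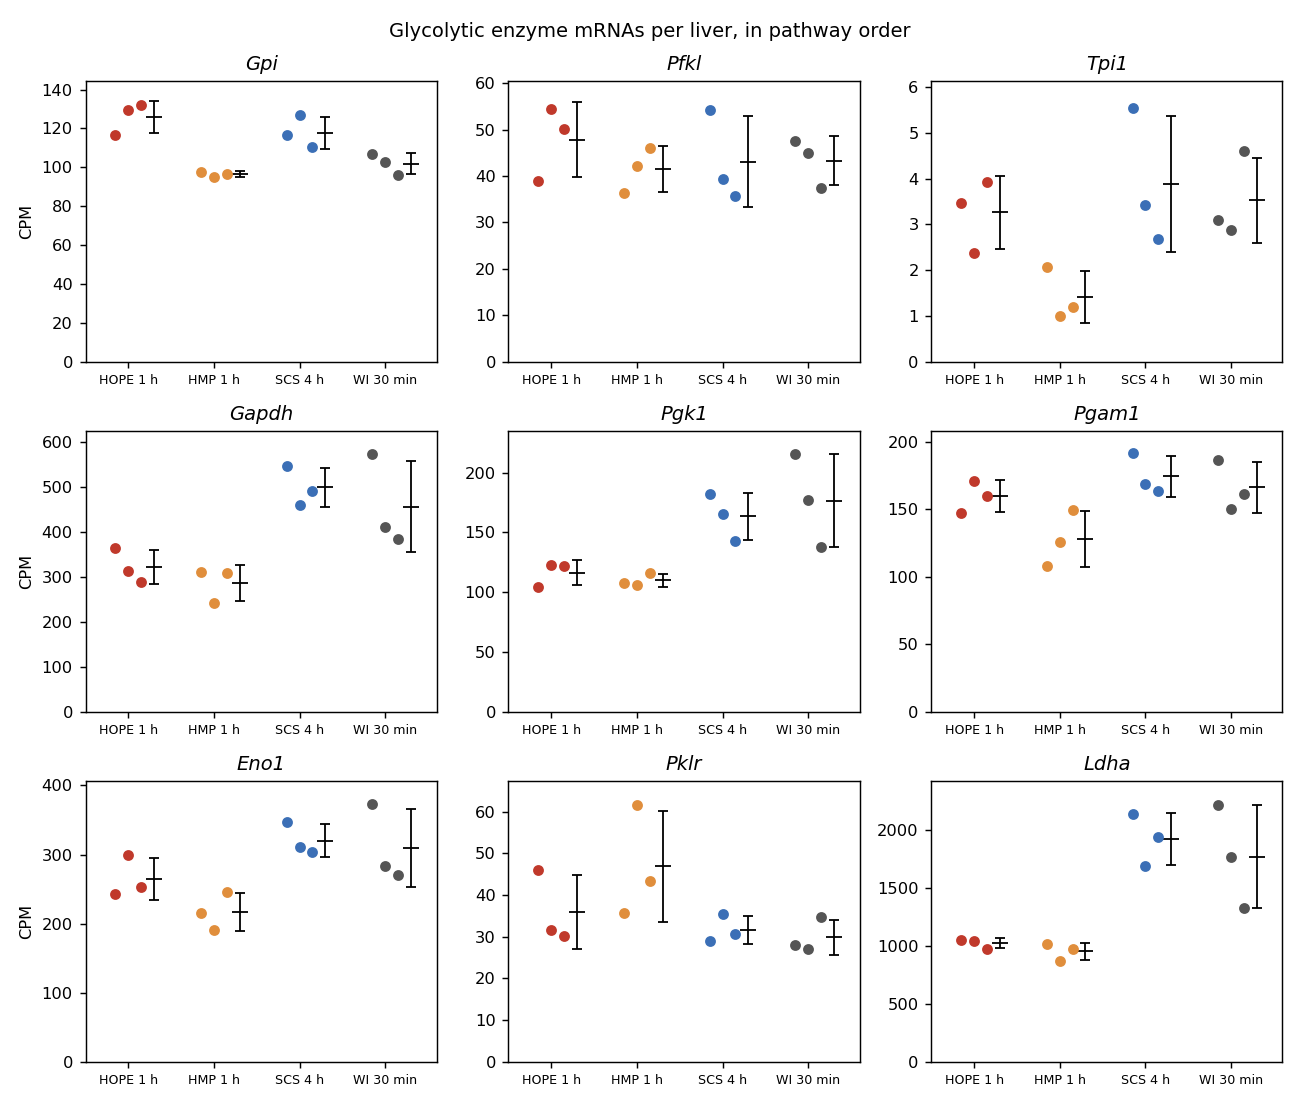
Level of each glycolytic enzyme mRNA (CPM, y axis from 0) in the 12 livers, by group; dots are livers 1 to 3 and black bars are the mean ± SD of 3 livers. For Ldha the 6 perfused livers lie at 872 to 1055 CPM and the 6 unperfused livers at 1328 to 2218 CPM.

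Ldha (ENSRNOG00000013009, chromosome 1 of Rnor_6.0 from 102900286 to 102909707) encodes the lactate dehydrogenase subunit that predominates in liver. It had 1055, 1047 and 977 CPM in the HOPE 1 h livers and 1017, 872 and 975 CPM in the HMP 1 h livers, against 2138, 1692 and 1939 CPM in the SCS 4 h livers and 2218, 1773 and 1328 CPM in the WI 30 min livers. All 6 perfused livers were below all 6 unperfused livers, and the spread was narrow in HOPE 1 h (SD 43 CPM) and wide in WI 30 min (SD 445 CPM). The log2 fold change was −0.90 (standard error 0.131, edgeR adjusted p = 0.0169), or 0.536 times the unperfused level. The call did not hold when WI 30 min liver 1 was left out (−0.81, edgeR adjusted p = 0.0576), and likewise for SCS 4 h liver 1 (−0.86, edgeR adjusted p = 0.0596) and SCS 4 h liver 2 (−0.94, edgeR adjusted p = 0.0583). It was also lost without HOPE 1 h liver 1 (−0.91, edgeR adjusted p = 0.0544) or HOPE 1 h liver 3 (−0.88, edgeR adjusted p = 0.0566), and held without each of the other 7 livers.

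Gapdh (ENSRNOG00000018630, chromosome 4 from 157676595 to 157679962) encodes the dehydrogenase that reduces NAD+ in the payoff phase. Its levels were 363, 313 and 288 CPM in HOPE 1 h and 311, 240.4 and 309 CPM in HMP 1 h, against 545, 459.5 and 491 CPM in SCS 4 h and 571, 411 and 384.5 CPM in WI 30 min. Perfused and unperfused livers did not overlap. The log2 fold change was −0.65 (standard error 0.124, edgeR adjusted p = 0.0411). Gapdh is often used as a loading or reference gene, and its mRNA was called lower here in perfused livers, though edgeR called it in no pair of single groups.

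Pgk1 (ENSRNOG00000058249, chromosome X from 77263359 to 77279367) encodes the kinase of the first ATP-forming step. The HOPE 1 h livers had 104, 122 and 122 CPM and the HMP 1 h livers 107, 106 and 116 CPM, against 182, 165 and 143 CPM in the SCS 4 h livers and 216, 177 and 137 CPM in the WI 30 min livers. Again no perfused liver reached the lowest unperfused one. The log2 fold change was −0.59 (standard error 0.114, edgeR adjusted p = 0.0413). Groups that do not overlap in the lower direction were found for these 3 of the 9 enzymes and for 1.21% of all genes, and in the higher direction for 0 enzymes and 0.621% of all genes.

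The calls of Gapdh and Pgk1 were close to the threshold. Gapdh was called with 1 liver left out for WI 30 min liver 3, HMP 1 h liver 1 and HMP 1 h liver 3 only, and its edgeR adjusted p was 0.0668 to 0.11 without each of the other 9 livers. Pgk1 was called without WI 30 min liver 3 only, and its edgeR adjusted p was 0.0504 to 0.113 without each of the other 11. The log2 fold changes stayed between −0.71 and −0.56 for Gapdh and between −0.67 and −0.51 for Pgk1.

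Pgam1 (ENSRNOG00000050585, chromosome 1 from 261158261 to 261165808) and Eno1 (ENSRNOG00000017895, chromosome 5 from 167288223 to 167299609) encode the mutase and enolase that lead to phosphoenolpyruvate, and neither was called. Eno1 had 242, 299 and 253 CPM in HOPE 1 h and 216, 190.5 and 245 CPM in HMP 1 h, against 347, 311 and 303 CPM in SCS 4 h and 374, 284 and 270.2 CPM in WI 30 min. One HOPE 1 h liver lay among the unperfused ones, and the log2 fold change was −0.39 (standard error 0.11, edgeR adjusted p = 0.113). DESeq2 called it (adjusted p = 0.0173). Pgam1 had 148, 171 and 159.7 CPM in HOPE 1 h and 108, 126 and 149.6 CPM in HMP 1 h, against 192, 168.5 and 163.5 CPM in SCS 4 h and 187, 150.0 and 162 CPM in WI 30 min. Its log2 fold change was −0.26 (standard error 0.101, edgeR adjusted p = 0.225), with the groups overlapping.

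Pklr (ENSRNOG00000020420, chromosome 2 from 188449210 to 188459592) encodes liver pyruvate kinase, which makes pyruvate in the last step of glycolysis. It had 46, 31.6 and 30.1 CPM in HOPE 1 h and 35.8, 61.6 and 43.4 CPM in HMP 1 h, against 29, 35.3 and 30.6 CPM in SCS 4 h and 28, 27 and 34.7 CPM in WI 30 min. The HMP 1 h livers were above every SCS 4 h and WI 30 min liver, while the HOPE 1 h livers overlapped them. The log2 fold change between perfused and unperfused livers was 0.42 (standard error 0.152, edgeR adjusted p = 0.193).

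The enzymes of the preparatory phase included 2 with almost no difference. Gpi (ENSRNOG00000023150, chromosome 1 from 90063411 to 90091287) interconverts glucose and fructose phosphates. It had 117, 129.6 and 132 CPM in HOPE 1 h and 97.8, 95.1 and 96.7 CPM in HMP 1 h, against 116, 127 and 110.2 CPM in SCS 4 h and 107, 102.5 and 96.2 CPM in WI 30 min. The perfused groups lay on either side of the unperfused ones, and the log2 fold change was 0.01 (standard error 0.0726, 95% interval −0.15 to 0.17).

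Pfkl (ENSRNOG00000001214, chromosome 20 from 11393877 to 11415882) encodes the liver subunit of phosphofructokinase, the committed step. Its levels ran from 36.3 to 54.6 CPM (median 44.1) in perfused livers and from 35.7 to 54.3 CPM (median 42.2) in unperfused livers. The log2 fold change was 0.04 (standard error 0.128, 95% interval −0.24 to 0.32), and each pair of neighbouring groups in the order of its group means differed by less than 1 SD.

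Tpi1 (ENSRNOG00000015290, chromosome 4 from 157328379 to 157331905) encodes triosephosphate isomerase and was the lowest of the 9. It had 3.48, 2.37 and 3.94 CPM in HOPE 1 h and 2.06, 0.999 and 1.18 CPM in HMP 1 h, against 5.55, 3.43 and 2.68 CPM in SCS 4 h and 3.1, 2.87 and 4.59 CPM in WI 30 min. All HMP 1 h livers were below every other liver. The log2 fold change between perfused and unperfused livers was −0.78 (standard error 0.262, edgeR adjusted p = 0.167). This value covers only the counts assigned to Tpi1 itself, which were 620 over the 12 livers.

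A second gene described as triosephosphate isomerase, LOC100911515 on chromosome 9 (20213588 to 20217176), held 11342 counts, 94.8% of the counts of both. Its log2 fold change between perfused and unperfused livers was −0.55 (standard error 0.279, edgeR adjusted p = 0.328). Between HOPE 1 h and HMP 1 h, Tpi1 had a log2 fold change of 1.20 and LOC100911515 one of −0.52. With the counts summed, a choice made after seeing the data, Tpi1 had −0.55 between perfused and unperfused and −0.44 between HOPE 1 h and HMP 1 h, so the direction between HOPE 1 h and HMP 1 h turned with the summing. The copies of Gapdh and Ldha held smaller shares. A further gene described as Gapdh, LOC108351137, held 23.3% of the counts of both (−0.51 between perfused and unperfused, standard error 0.144, edgeR adjusted p = 0.114), and an Ldha pseudogene, RGD1562690, held 3.56% and was itself lower (−0.83, standard error 0.122, edgeR adjusted p = 0.0181). The sources used here do not say how the counting treated reads that fit several copies.

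**Figure D2:**
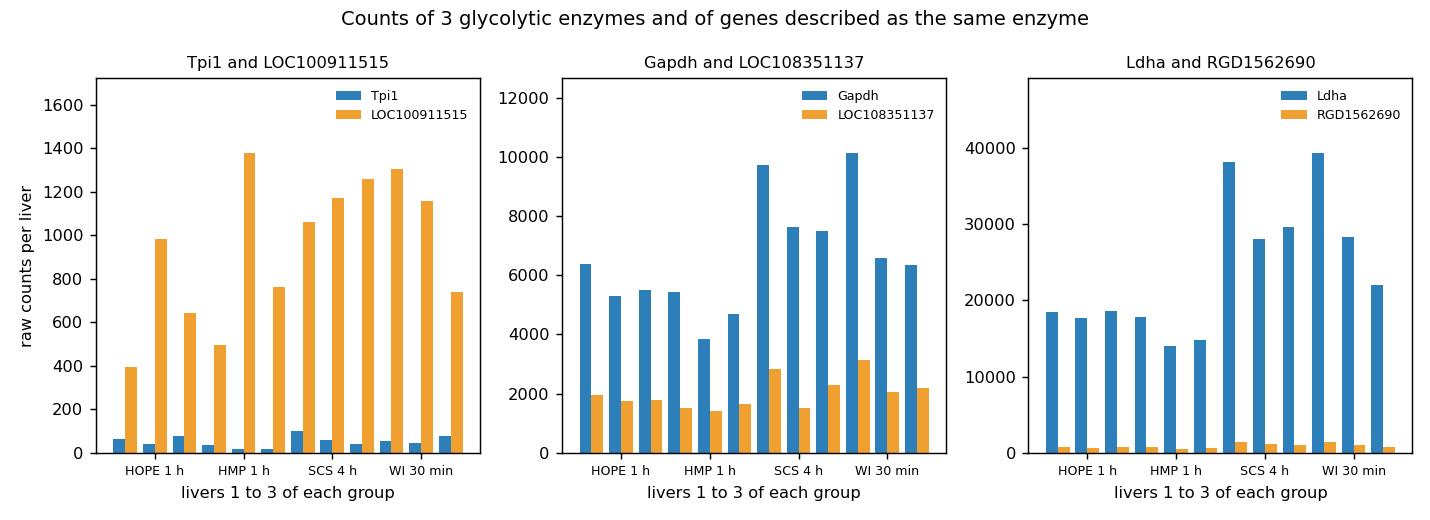
Raw counts per liver (y axis) of Tpi1, Gapdh and Ldha (blue) and of a further gene described as the same enzyme (orange), for livers 1 to 3 of HOPE 1 h, HMP 1 h, SCS 4 h and WI 30 min from left to right. LOC100911515 exceeds Tpi1 in all 12 livers, with 395 to 1377 counts against 16 to 99, whereas Gapdh and Ldha exceed their copies.

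Between single groups, in the fit over all 12 livers, 0 genes of the 13687 were called by edgeR in each of the 6 pairs, and so no enzyme was. DESeq2 called 15 to 438 genes in these pairs. It called Ldha lower in all 4 pairs of a perfused with an unperfused group (DESeq2 adjusted p = 2.4e-05 to 0.00369). Gapdh was called in 3 (not HOPE 1 h against WI 30 min), Pgk1 in 3 (not HOPE 1 h against SCS 4 h), Tpi1 in both HMP 1 h pairs and Eno1 in HMP 1 h against SCS 4 h. Tpi1 here and in the counts of enzymes below leaves out LOC100911515, which held 94.8% of the counts of both. In the HMP 1 h pairs LOC100911515 had −0.21 against WI 30 min and −0.37 against SCS 4 h (edgeR adjusted p = 0.844 and 0.694). Of all genes, DESeq2 called 43 lower in HOPE 1 h against WI 30 min and 176 against SCS 4 h. In HMP 1 h these were 219 against WI 30 min and 304 against SCS 4 h, and genes called higher numbered 54, 28, 169 and 134 in the same order. The unadjusted edgeR p was under 0.05 for 3 enzymes that were lower in HOPE 1 h than in WI 30 min (4.16% of all genes) and 1 that was higher (4.41%), and for 3 that were lower (6.84%) and 0 that were higher (4.04%) in HOPE 1 h than in SCS 4 h. In HMP 1 h it was under 0.05 for 6 that were lower and 1 that was higher against WI 30 min (6.6% and 7.24% of all genes), and for 7 that were lower and 1 that was higher against SCS 4 h (8.56% and 5.93%). Values were negative for 6 of 9 enzymes in HOPE 1 h against WI 30 min (46.7% of all genes), 6 in HOPE 1 h against SCS 4 h (44.9%), 8 in HMP 1 h against WI 30 min (46.6%) and 8 in HMP 1 h against SCS 4 h (45.8%). These comparisons share livers and are not independent of each other.

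Ldha had a negative log2 fold change in all 4 pairs, with no test between them. It was −0.91 in HOPE 1 h against SCS 4 h, −0.79 in HOPE 1 h against WI 30 min, −1.01 in HMP 1 h against SCS 4 h and −0.89 in HMP 1 h against WI 30 min (standard errors 0.185 to 0.186). Livers of the compared groups did not overlap in the lower direction for 4 enzymes in HOPE 1 h against SCS 4 h (10.3% of all genes; 0 in the higher direction, against 8.97%), 3 in HOPE 1 h against WI 30 min (7.42%), 7 in HMP 1 h against SCS 4 h (10.6%) and 6 in HMP 1 h against WI 30 min (8.45%). The enzymes were Ldha, Gapdh and Pgk1 in all 4 pairs, Eno1 in all but HOPE 1 h against WI 30 min, Pgam1 and Tpi1 (without LOC100911515) in both HMP 1 h pairs, and Gpi in HMP 1 h against SCS 4 h. In the higher direction this held for Gpi in HOPE 1 h against WI 30 min (8.77% of all genes) and for Pklr in HMP 1 h against SCS 4 h (7.29%) and against WI 30 min (7.57%).

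SCS 4 h against WI 30 min tests cold storage after warm ischemia, and no enzyme was called in it. The median log2 fold change of the 9 was 0.08, against 0.01 over all genes, and it was −0.002 without SCS 4 h liver 1. Gpi had the largest value, 0.21 (standard error 0.103, 95% interval −0.02 to 0.43), and was the only enzyme whose livers did not overlap (higher in SCS 4 h, against 7.13% of all genes, and 0 lower, against 5.86%). At an unadjusted p under 0.05 there were 0 enzymes higher (2.77% of all genes) and 0 lower (2%), and 2 of 9 values were negative (47.7%). Ldha had 0.12 (95% interval −0.28 to 0.52).

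HOPE 1 h against HMP 1 h addresses active oxygenation of the perfusate. None of the 9 was called, and the median log2 fold change was 0.21, with 8 of 9 positive where 51% of all genes were negative. Gpi had 0.39 (standard error 0.103, 95% interval 0.16 to 0.61, edgeR unadjusted p = 0.00283, adjusted p = 0.558), and its livers did not overlap. Tpi1 also did not overlap, and 2 of 9 such enzymes compares with 6.22% of all genes, and 0 enzymes did so in the lower direction (4.89%). At an unadjusted p under 0.05, 3 enzymes were higher (3.96% of all genes) and 0 were lower (3.52%). Tpi1 is included among the positive, the not overlapping and these higher enzymes, on 16 to 75 counts per liver. With the counts of its copy summed in, its value in this contrast was −0.44. Ldha had 0.11 (95% interval −0.30 to 0.51), Gapdh 0.17 (−0.22 to 0.55) and Pgk1 0.08 (−0.27 to 0.43), while Pklr had −0.39 (−0.85 to 0.08).

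**Figure D3:**
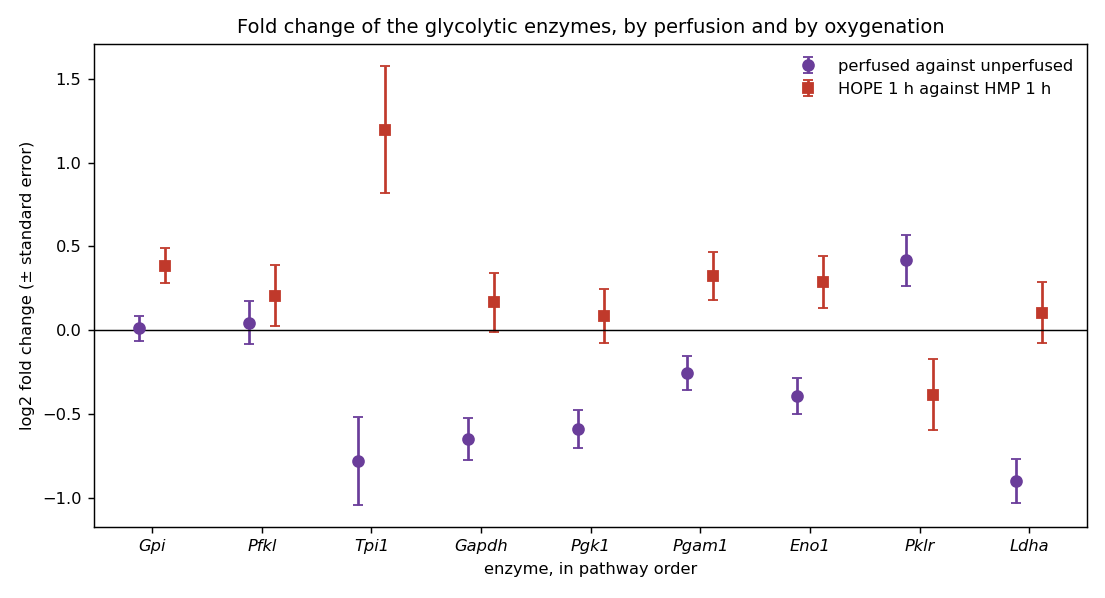
Log2 fold change of each enzyme (y axis, with standard error), in pathway order, between perfused and unperfused livers (circles) and between HOPE 1 h and HMP 1 h livers (squares); 0 marks no difference. Ldha, Gapdh and Pgk1 are below 0 in the first contrast, at −0.90, −0.65 and −0.59, and near 0 in the second.

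Together the 9 enzymes took a smaller share of all counts in perfused livers, 0.165% to 0.2095% against 0.254% to 0.389% in unperfused livers. By group the share was 0.208 ± 0.00121% in HOPE 1 h, 0.181 ± 0.0156% in HMP 1 h, 0.331 ± 0.04% in SCS 4 h and 0.318 ± 0.068% in WI 30 min (SD, n = 3 each). Ldha alone made up 48.2% to 52.7% of the enzyme counts in perfused livers and 54.1% to 60.2% in unperfused livers. Because this share includes the members called, it repeats their difference and is not further evidence for it.

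**Figure D4:**
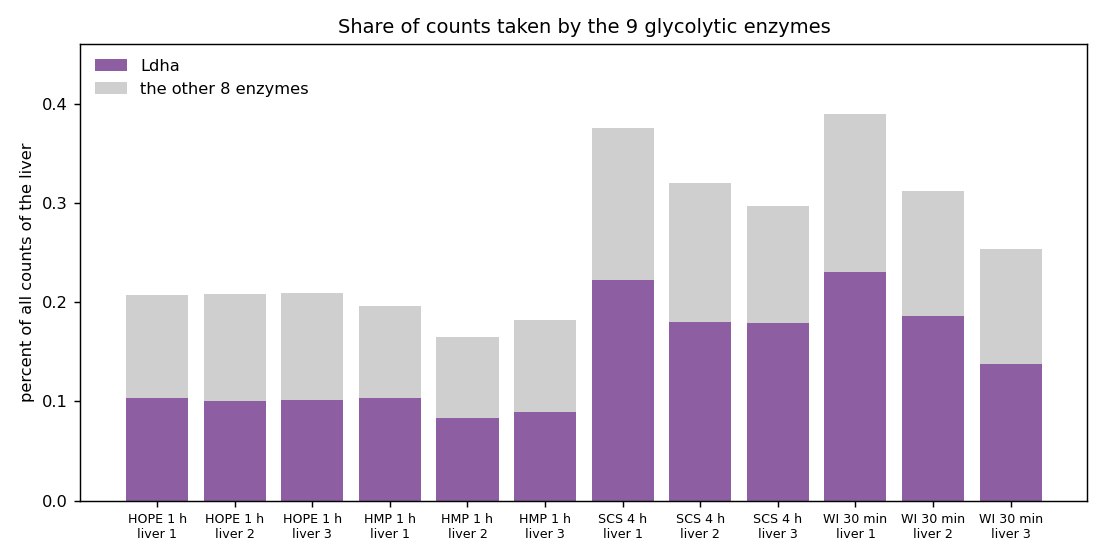
Share of all counts taken by the 9 glycolytic enzymes in each liver (percent, y axis from 0), split into Ldha (purple) and the other 8 (grey). The 6 perfused livers, on the left, lie at 0.165% to 0.2095% and the 6 unperfused livers at 0.254% to 0.389%.

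Levels between genes were compared per length, in the deposited FPKM, which are scaled by gene length and library total. Ldha was the most abundant of the 9, at 634 ± 30.7 in HOPE 1 h, 599 ± 46.2 in HMP 1 h, 1196 ± 138 in SCS 4 h and 1114 ± 282 FPKM in WI 30 min (SD, n = 3 each). Gapdh followed, with group means of 287 to 495 FPKM, then Eno1 with 115 to 168.5 FPKM. Pgam1, Pgk1, Gpi, Pfkl and Pklr were lower, and the gene Tpi1 was lowest at 0.981 to 2.68 FPKM. That value leaves out LOC100911515, which held 94.8% of the counts of both genes, so it is not the level of the whole enzyme.

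Ldha and Eno1 made up nearly all of their isozymes, whereas pyruvate kinase was shared. Ldha was 98.6% to 99.65% of Ldha plus Ldhb FPKM in perfused and 99.6% to 99.9% in unperfused livers, and Eno1 was 98.9% to 99.5% and 99% to 99.7% of the enolases. Pklr, the hepatocyte form, shared pyruvate kinase with Pkm, the form of most other cells, and held 32.6% to 67.8% of the FPKM of both in perfused livers and 49% to 63.5% in unperfused livers. Neither Pkm nor Ldhb was called. Pkm had a log2 fold change of 0.69 (edgeR adjusted p = 0.241) and Ldhb one of 0.88 (adjusted p = 0.241).

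Some of the enzymes varied together across livers and others did not. Over the 12 livers, Pearson's r of log2 CPM had a median of 0.469 over all 36 pairs of enzymes, from −0.78 to 0.964. Gpi and Pfkl were near 0 with Ldha (0.112 and 0.059). Among Gapdh, Pgk1, Pgam1, Eno1 and Ldha, a set chosen after their values were seen, r ran from 0.658 to 0.964 over 10 pairs (median 0.867), and was 0.964 for Gapdh with Ldha. On residuals from the group means r was 0.305 to 0.85, so part of this lies within groups. Pklr had a negative r with each of the other 8, from −0.32 with Pfkl to −0.78 with Eno1. The points share their libraries and depth, and these correlations are descriptions. WI 30 min liver 1 had the highest Ldha, Gapdh, Pgk1 and Eno1 of all livers, and WI 30 min liver 3 the lowest of its group for each of the 4.

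**Figure D5:**
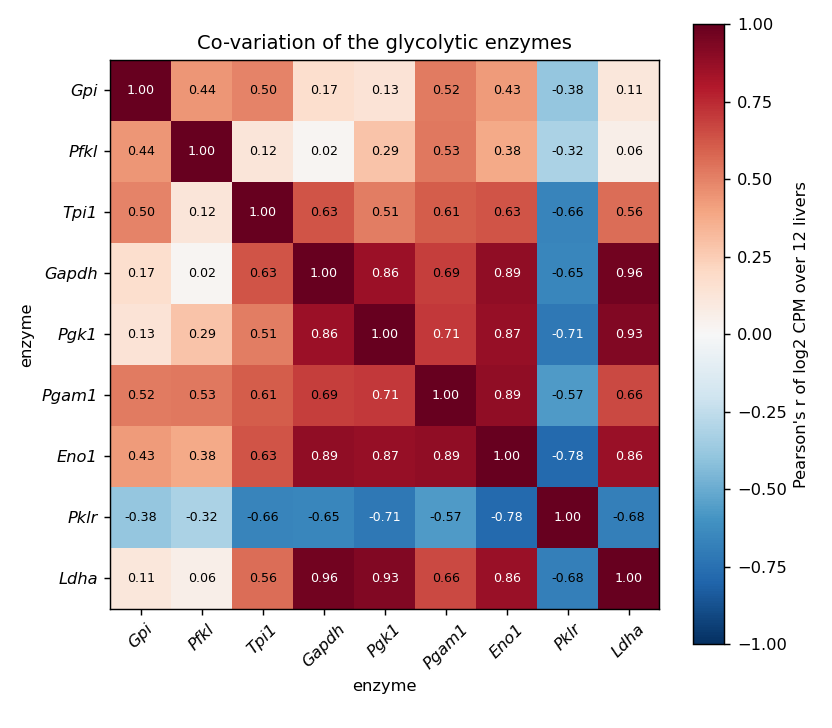
Pearson's r of log2 CPM over 12 livers between each pair of the 9 enzymes (color scale from −1 to 1, enzymes in pathway order on both axes). Gapdh, Pgk1, Pgam1, Eno1 and Ldha form a block of positive values up to 0.964, and the Pklr row and column are negative, down to −0.78.

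Of 8 further lists of glucose metabolism, only the list for the fate of pyruvate held a called gene. Mpc2, a subunit of the carrier that brings pyruvate into mitochondria, averaged 126 CPM in perfused and 220 CPM in unperfused livers, a log2 fold change of −0.80 (standard error 0.152, edgeR adjusted p = 0.0409). It was 1 of 15 tested genes of that list, whose median log2 fold change was −0.21 with 10 of 15 negative, where 1.02% of all genes were called and 45.3% were negative. Pdp2, a pyruvate dehydrogenase phosphatase, had −0.73 (adjusted p = 0.0831). No gene was called among 15 tested other isozymes and steps of glycolysis (median 0.27), 8 regulators (0.16), 9 glucose and lactate transporters (0.25), 7 gluconeogenic bypass enzymes (0.03), 7 pentose phosphate enzymes (−0.01), 15 genes of glycogen metabolism (0.07) or 7 of fructose and glycerol entry (0.02), against a median of 0.03 over all genes.

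Single genes of these lists were named by their unadjusted p and were not called by edgeR. Hk3, a hexokinase of blood cells, had 1.48 (standard error 0.431, adjusted p = 0.123) at means of 6.37 CPM in perfused and 2.37 CPM in unperfused livers. Slc2a2, the liver glucose transporter, had 0.48 (adjusted p = 0.223). Fbp1, which reverses the phosphofructokinase step, had −0.37 (adjusted p = 0.179), and Pck2, the mitochondrial enzyme that makes phosphoenolpyruvate, had −0.57 (adjusted p = 0.205). Slc16a7, a monocarboxylate transporter, had −0.34 (adjusted p = 0.207). In glycogen metabolism, the muscle phosphorylase Pygm had 1.24 (adjusted p = 0.133) and the phosphoglucomutase Pgm2 had 0.58 (adjusted p = 0.136). The regulators Pfkfb3 and Myc had 0.40 and 0.35, and the pentose phosphate enzyme Rpe had −0.23 (adjusted p = 0.296 to 0.427 for these 3). Of fructose and glycerol entry, Akr1b1 had 0.62 (adjusted p = 0.358) and Sord −0.28 (adjusted p = 0.304).

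The genes whose pattern over the 12 livers was most like the mean of the 9 enzymes were Cct3 (r = 0.964), Wdr61 (0.962), Clpb (0.957), Psmd7 (0.954) and Nudt7 (0.947). These genes and those named for Ldha were picked by likeness over the same livers. In these, Ldha, Gapdh and Pgk1 separate perfused from unperfused livers. The values of the picked genes in that contrast are therefore not independent of the choice and are descriptions only. Cct3, a chaperonin subunit, averaged 94.4 CPM in perfused and 127 CPM in unperfused livers (log2 fold change −0.44). Clpb is a mitochondrial chaperone and Nudt7 a nudix hydrolase. Those most like Ldha were its pseudogene RGD1562690 (r = 0.987), Hadha (0.972), Abhd1 (0.971), AABR07070043.1 (0.967) and Acads (0.966). Hadha and Acads, enzymes of fatty acid oxidation, had log2 fold changes of −0.54 and −0.43, and Abhd1, an abhydrolase-domain protein, had −1.11.

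Markers of other cells also differed between livers. Each of 10 Kupffer cell and macrophage markers had a positive log2 fold change in perfused against unperfused livers (median 0.62, 0 called), as did 9 of 9 tested sinusoidal endothelial markers (0.53), 8 of 10 stellate (0.49) and 6 of 6 tested bile duct markers (0.68). Summed Kupffer markers were 529 to 1728 CPM in perfused and 459 to 724 CPM in unperfused livers, with the highest in HMP 1 h liver 1 and HOPE 1 h liver 3. Red cell markers had a negative log2 fold change in all 7 tested (median −0.61, 0 called), and summed to 1220 to 1860 CPM in HOPE 1 h, 267 to 2579 CPM in HMP 1 h, 574 to 1803 CPM in SCS 4 h and 3438 to 4656 CPM in WI 30 min. Against SCS 4 h their median was 0.34 in HOPE 1 h (5 of 7 positive) and 0.17 in HMP 1 h (6 of 7 positive). In SCS 4 h against WI 30 min it was −1.74, with all 7 negative. No marker of these lists was at 0 in every liver. The part of these cells in the enzyme values was not tested. Without HMP 1 h liver 1 and HOPE 1 h liver 3, Ldha stayed at −0.90 (edgeR adjusted p = 0.0351), while Gapdh (−0.64, adjusted p = 0.0906) and Pgk1 (−0.60, adjusted p = 0.0984) were no longer called.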

How the data were processed

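Liver RNA of 12 rats' livers, numbered 1 to 3 in each of 4 groups, was analysed from the deposited table of 33744 genes. The authors aligned reads with Hisat2 and used StringTie, and the submitters' processing notes name Rnor_6.0. Raw counts per gene were deposited; the sources used here name neither the counting tool nor its use of strand. FPKM were deposited as well (counts scaled by gene length and library total), used only to compare levels between genes. Deposited columns of the authors' own comparisons were not used, and of 24 per-liver columns 0 could not be matched to a sample. The labels number the samples without tying them to animals, so p-values measure the spread between these samples.

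Counts were tested with edgeR 4.0.16 in R 4.3.3: filterByExpr (13687 genes), TMM, 1 mean per group over all 12 livers, the quasi-likelihood test and Benjamini-Hochberg adjustment over all tested genes of a comparison. Log2 CPM used a prior count of 2. The procedure was also run on data simulated from the average spread of genes at each level. Such data lack the spread of single genes and livers, so no support is drawn from that run. Residual degrees of freedom were 8. The members, lists and tests were chosen with earlier results of these data known. Named are all 9 enzymes, called genes of each pathway list (at most 4), the 2 genes of each list with the lowest unadjusted p in perfused against unperfused livers, the 5 genes most correlated with the enzymes' mean and with Ldha, and the isozymes compared, except items not reported here. Alternatives were DESeq2 1.42.0, RLE or library totals for scaling, no filter, the groups compared alone, the replicate number as a block, each liver left out, and HMP 1 h liver 1 with HOPE 1 h liver 3 left out. Summing near-identical copies was added after seeing the data. Neither the labels nor the file headers gave a sequencing batch. RefSeq promoters (GRCr8) were matched by symbol for 8 of 9 enzymes, all but Pgk1.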

Additional observations from a re-analysis of the deposited data

How the results depend on the processing

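Under all alternatives Ldha kept a negative log2 fold change in perfused against unperfused livers, from −0.99 to −0.81. Of 1251 values of single enzymes under alternatives, 1171 kept direction and side of the threshold, 17 passed it only there, 28 no longer passed it and 35 changed sign, all of enzymes not called in that comparison. Of the 35, 28 came from leaving out 1 liver. In the ranges with each liver left out, SCS 4 h against WI 30 min changed sign for Tpi1 (−0.203 to 0.382), Ldha (−0.053 to 0.31), Pgk1 (−0.264 to 0.055), Pfkl (−0.206 to 0.113), Eno1 (−0.038 to 0.208), Pklr (−0.004 to 0.204) and Pgam1 (−0.002 to 0.163). The same held in HOPE 1 h against WI 30 min for Tpi1 (−0.269 to 0.125) and Pgam1 (−0.13 to 0.031), in HOPE 1 h against SCS 4 h for Tpi1 (−0.463 to 0.09) and Pklr (−0.039 to 0.295), for Pfkl in HMP 1 h against WI 30 min (−0.159 to 0.035) and SCS 4 h (−0.177 to 0.141), and in perfused against unperfused livers for Gpi (−0.015 to 0.035) and Pfkl (−0.018 to 0.141). Gpi in perfused against unperfused livers was also −0.06 with library totals, −0.001 with no filter and −0.008 without HMP 1 h liver 1 and HOPE 1 h liver 3, and Pfkl was −0.032 with library totals. Without these 2 livers Pfkl was 0.036 in HMP 1 h against WI 30 min and 0.051 in HMP 1 h against SCS 4 h. With copies summed, Tpi1 was −0.44 in HOPE 1 h against HMP 1 h. The cause was not tested.

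The number of genes called in perfused against unperfused livers was 743 by DESeq2, 306 with library totals, 66 with the replicate block and 61 without HMP 1 h liver 1 and HOPE 1 h liver 3, against 140, and 0 to 166 with each liver left out. DESeq2 called 97 genes in HOPE 1 h against WI 30 min, 204 in HOPE 1 h against SCS 4 h, 15 in HOPE 1 h against HMP 1 h, 388 in HMP 1 h against WI 30 min, 438 in HMP 1 h against SCS 4 h and 15 in SCS 4 h against WI 30 min, where edgeR called 0 in each. Library totals gave 63 in HMP 1 h against WI 30 min and 22 in HMP 1 h against SCS 4 h. No filter gave 8 in HOPE 1 h against WI 30 min, 19 in each HMP 1 h comparison with an unperfused group and 1 in SCS 4 h against WI 30 min. The groups compared alone gave 2 in HOPE 1 h against WI 30 min and 5 in HOPE 1 h against SCS 4 h. Without HMP 1 h liver 1 and HOPE 1 h liver 3 these were 1, 1, 46 and 22 in HOPE 1 h against WI 30 min, HOPE 1 h against SCS 4 h, HMP 1 h against WI 30 min and HMP 1 h against SCS 4 h. With each liver left out the ranges were 0 to 4, 0 to 1, 0 to 29 and 0 to 36 in the same order, 0 to 2 in HOPE 1 h against HMP 1 h and 0 to 1 in SCS 4 h against WI 30 min.

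The median log2 fold change of the 9 enzymes became −0.23 in HOPE 1 h against WI 30 min, −0.38 in HMP 1 h against WI 30 min and −0.45 in HMP 1 h against SCS 4 h with copies summed, and −0.63 in HMP 1 h against WI 30 min with library totals, where the median of all genes was −0.086 in place of 0.029. With each liver left out it was −0.24 to −0.069 in HOPE 1 h against WI 30 min, −0.32 to −0.059 in HOPE 1 h against SCS 4 h, 0.19 to 0.34 in HOPE 1 h against HMP 1 h, −0.61 to −0.36 in HMP 1 h against WI 30 min and −0.002 to 0.16 in SCS 4 h against WI 30 min. Enzymes with a negative value numbered 2 in HOPE 1 h against HMP 1 h with copies summed, and 0 to 5 in SCS 4 h against WI 30 min with each liver left out.

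The replicate numbers only name the livers. Same-numbered livers had a correlation of deviations from −0.19 to 0.14 over 18 pairs, over 0.1 in 1, and 5 of 12 livers correlated best with one of their number. With the replicate block, 1 gene was called in HOPE 1 h against WI 30 min and 1 in SCS 4 h against WI 30 min, and Pgk1 had an edgeR adjusted p of 0.0703 in perfused against unperfused livers.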
